A study of Mus musculus with 40 samples.

Results

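Nucleotide synthesis and salvage genes were followed in 5 gut bacteria of mice fed broccoli powder. The members were chosen by name from the count tables: every feature whose symbol, without a trailing copy number, begins with pur, pyr, gua or deo, or is carA, carB, ade, adk, apt, upp or hpt. This gave 158 of the 16742 features, of which 97 had enough counts to be tested (5624 features were tested in all). Acetatifactor had 39 members (9 tested), D. muris 30 (23 tested), F. rodentium 34 (33 tested), L.bacterium335 37 (21 tested) and X. muris 18 (11 tested). A member that passed the minimum only because it was abundant on broccoli had to differ from the 0% diet. Counts of tested members in Acetatifactor and L.bacterium335 are therefore descriptions of the genes that could be read, not of all members.

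The study asked how broccoli eaten with a Western-style diet changes the cecal bacteria and their transcripts. C57BL/6 mice aged 3 weeks at the start ate the Total Western Diet, a rodent feed modelled on the nutrient intake of people in Western countries, for 6 weeks. Every group then stayed on that diet for 3 weeks, either without broccoli (0%) or with broccoli powder at 0.5%, 1% and 2.5% of the feed, and RNA of the cecal contents was sequenced after ribosomal RNA depletion. Each diet had 10 libraries, 40 in all, and the labels do not say whether cages or animals were shared, so p-values measure the spread between these libraries. No genotype, allele or treatment other than the diet is labelled.

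Over the 5 tables a library held 232791 to 5107130 counts (median 820308). A genome was analysed in a library only with at least 10000 counts on it, which left 7 to 10 libraries per diet and genome, and 8 for F. rodentium at 2.5%. The median count of F. rodentium was 511338 at 0%, 780314 at 0.5%, 258912 at 1% and 75069 at 2.5%. At 2.5% L.bacterium335 (83651 at 0% and 525404 at 2.5%), Acetatifactor (35241 and 129471), D. muris (25672 and 91087) and X. muris (15999 and 120030) had higher medians than at 0%, while at 0.5% Acetatifactor (24770) and L.bacterium335 (77244) had lower ones. At 0% the counts of X. muris (stable RNA features included), L.bacterium335 and Acetatifactor were concentrated in few features: the 5 most abundant took a median of 89.9%, 76.8% and 56.8% of them, against 53.2%, 18.1% and 28.7% at 2.5%. In bulk RNA, fewer cells of a bacterium and less RNA per cell cannot be told apart. Libraries with title numbers 76 to 81 (4 at 0.5%, 1 at 1% and 1 at 2.5%) follow a gap in the numbering and were left out in an alternative fit.

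Bacteria obtain nucleotides by building them or by recycling them. De novo purine synthesis starts on phosphoribosyl pyrophosphate with the enzyme encoded by purF and runs to inosine monophosphate, from which guaB and guaA lead to guanine nucleotides and purA and purB to adenine nucleotides. Pyrimidine synthesis starts with carbamoyl phosphate (carA, carB) and aspartate (pyrB), closes the ring, and ends through pyrH and pyrG in uridine and cytidine nucleotides. Salvage takes up free bases with phosphoribosyltransferases (apt, hpt, upp) or breaks nucleosides down: deoD splits off the base, deoB moves the phosphate on the sugar, and deoC cleaves deoxyribose phosphate into acetaldehyde and glyceraldehyde phosphate, so that the sugar can serve as a carbon source.

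Across all 5 genomes, no member that passed the count minimum was called lower at any dose by edgeR. Among members below that minimum, edgeR without it called Acetatifactor purF_3 lower at all 3 doses (-2.60, -2.66 and -2.01, with 23 counts at 0% and 23 at 2.5%) and L.bacterium335 deoD_2 lower at 2.5% (-4.16). DESeq2 also called deoD_2 lower there, at -3.87. Of the 97 tested members, 27 were called higher at 0.5%, 29 at 1% and 29 at 2.5% (edgeR quasi-likelihood test within each genome, Benjamini-Hochberg adjusted p under 0.05 over all tested genes of that genome). L.bacterium335 and Acetatifactor held all but 2, 1 and 1 of these calls. In both of these genomes synthesis and salvage genes were among those called higher. Of all tested genes, 79.4% in L.bacterium335 and 21.6% in Acetatifactor were called higher at 0.5%. The shares were 78.4% and 49.5% at 1%, and 77.8% and 54.5% at 2.5%, where 15% and 22.5% were called lower.

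**Figure D1:**
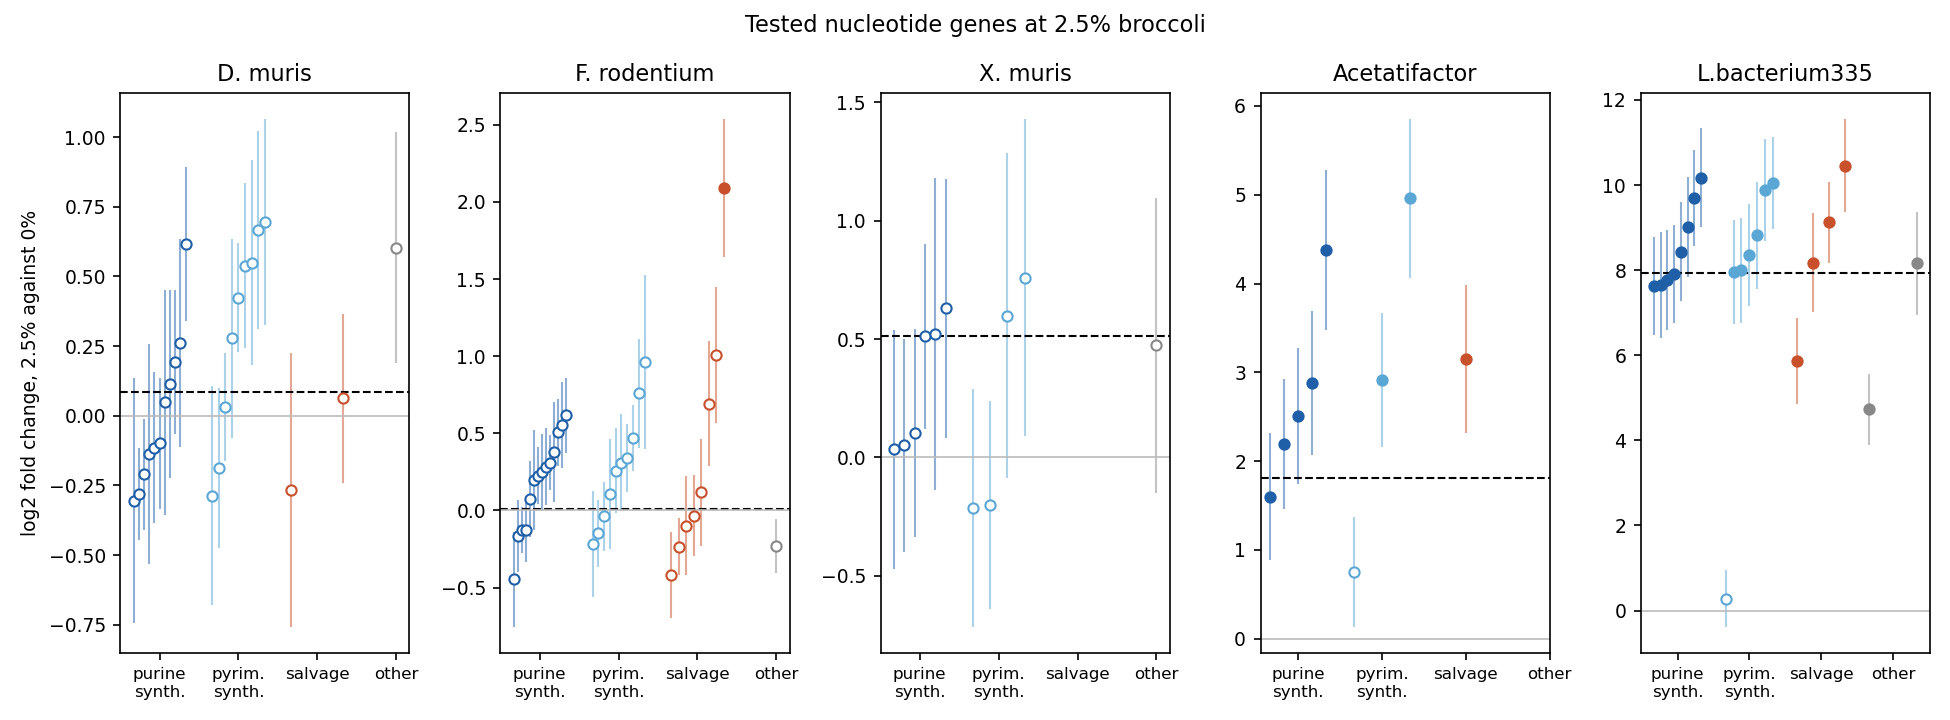
Log2 fold change of each tested nucleotide gene at 2.5% against 0% broccoli (y axis, its own scale in each panel), by class and by genome. Points are edgeR estimates with standard errors, filled where the adjusted p was under 0.05, and the dashed line is the median of all tested genes of that genome (7.94 in L.bacterium335, 1.81 in Acetatifactor and 0.01 in F. rodentium). In F. rodentium 1 salvage gene, deoC at 2.09, is filled, and in D. muris and X. muris none is. The values of L.bacterium335 genes with no count at 0% depend on the model's prior count.

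F. rodentium was the best counted bacterium at 0% and had the most members tested, 33 of its 25 synthesis genes, 8 salvage genes and adk. At 0.5%, 2 of 33 tested members were higher, where 3.55% of all tested genes of this genome were called higher and 4.91% lower. Both were copies of purF, the gene of the first committed enzyme of purine synthesis. At 1% 0 of 33 were called by edgeR (background 0.474% higher and 0% lower). DESeq2 called 0 of 34 members there, and 22 of 1992 genes in all. At 2.5% 1 of 33 was higher, deoC, where 5.39% of all tested genes were higher and 4.03% lower. These shares of members called by edgeR lie near the background. At an unadjusted edgeR p under 0.05 there were 11, 2 and 6 of 33 members at 0.5, 1 and 2.5%. Of all 1689 tested genes 358, 144 and 446 were at such a p.

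The copy named purF_1 had 50.8 CPM in the lowest, 129 in the median and 212 in the highest 0% library. CPM here are relative to the genome's own counts in the library, after scaling by the trimmed mean of M-values (TMM). At 0.5% the lowest library had 126, the median 191 and the highest 269 CPM. All 10 libraries at 0.5% lay above the 0% mean, although the groups overlapped. The log2 fold change of purF_1 was 0.67 ± 0.21 (SE, n = 10 and 10, edgeR adjusted p = 0.0406) at 0.5%, 0.53 ± 0.22 (adjusted p = 0.49) at 1% and 0.62 ± 0.24 (adjusted p = 0.0988) at 2.5%. Without libraries 76 to 81 the 0.5% value of purF_1 was 0.65 with an edgeR adjusted p of 0.168.

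The copy named purF_3 ran from 213 to 501 CPM at 0% (median 347) and from 324 to 823 CPM at 0.5% (median 536). Of the 10 libraries at 0.5%, 8 lay above the 0% mean. Its log2 fold change was 0.56 ± 0.18 (edgeR adjusted p = 0.0472) at 0.5%, 0.10 ± 0.19 at 1% and -0.13 ± 0.21 at 2.5%. The third copy, purF_2, was not called, with 0.26 ± 0.16 at 0.5% (edgeR adjusted p = 0.36) and 0.31 ± 0.18 at 2.5% (edgeR adjusted p = 0.26). How the counting divided reads of near-identical copies is not stated in the labels, so the split between the 3 copies is uncertain. The calls of both copies at 0.5% were lost when single libraries were left out: purF_1 without any of 6 libraries (0% replicates 6 and 7, 0.5% replicates 2, 4, 6 and 8), and purF_3 without any of 15 of the 38 libraries (0% replicates 2, 4, 6 and 7, 0.5% replicates 2, 3, 5, 6, 8 and 9, 1% replicate 3 and 2.5% replicates 3, 4, 5 and 7), and without libraries 76 to 81 (0.69, edgeR adjusted p = 0.0636).

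The 24 tested synthesis genes of F. rodentium all had a positive log2 fold change at 0.5%, with a median of 0.33, where the median of all 1689 tested genes was 0.02. At 1% 22 of 24 were positive (median 0.18) and at 2.5% 17 of 24 (median 0.25). Of all 1689 tested genes 882, 777 and 862 were positive at 0.5, 1 and 2.5%. The 8 salvage genes had 4 positive and 4 negative values at 0.5% (median 0.00) and again 4 and 4 at 2.5% (median 0.04). Relative log expression (RLE) factors were also used in edgeR, in place of TMM. The median over all tested genes then moved from 0.02, -0.04 and 0.01 to 0.09, 0.02 and 0.12 at the 3 doses. That of the 33 tested members moved from 0.31, 0.16 and 0.22 to 0.39, 0.22 and 0.35. Those factors also moved the calls over all tested genes from 60 higher and 83 lower to 78 and 72 at 0.5%, and from 91 and 68 to 111 and 45 at 2.5%. No test separates the classes, and apart from the 2 copies of purF none of the synthesis genes passed on its own. The gene carB (carbamoyl phosphate synthase, large subunit) was above the 0% mean in 10 of 10 libraries at 0.5%, with 0.50 ± 0.20 (edgeR adjusted p = 0.11), and it was called without 0% replicate 1 or 8. The gene guaA (GMP synthase) was also above it in 10 of 10, with 0.28 ± 0.17 (edgeR adjusted p = 0.35), whereas guaB (IMP dehydrogenase) was at 0.00 ± 0.14. The pyrimidine gene pyrG (CTP synthase) had 0.10 ± 0.20 at 0.5% and 0.34 ± 0.22 at 2.5%, and purH, which completes inosine monophosphate, had 0.50 ± 0.26 and 0.56 ± 0.28, none of them called. At 0.5% purL was called, at 0.59 to 0.68, when some single libraries were left out. These were 0% replicates 1, 3 and 8, 1% replicates 1, 4, 5 and 8, and 2.5% replicate 2.

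**Figure D2:**
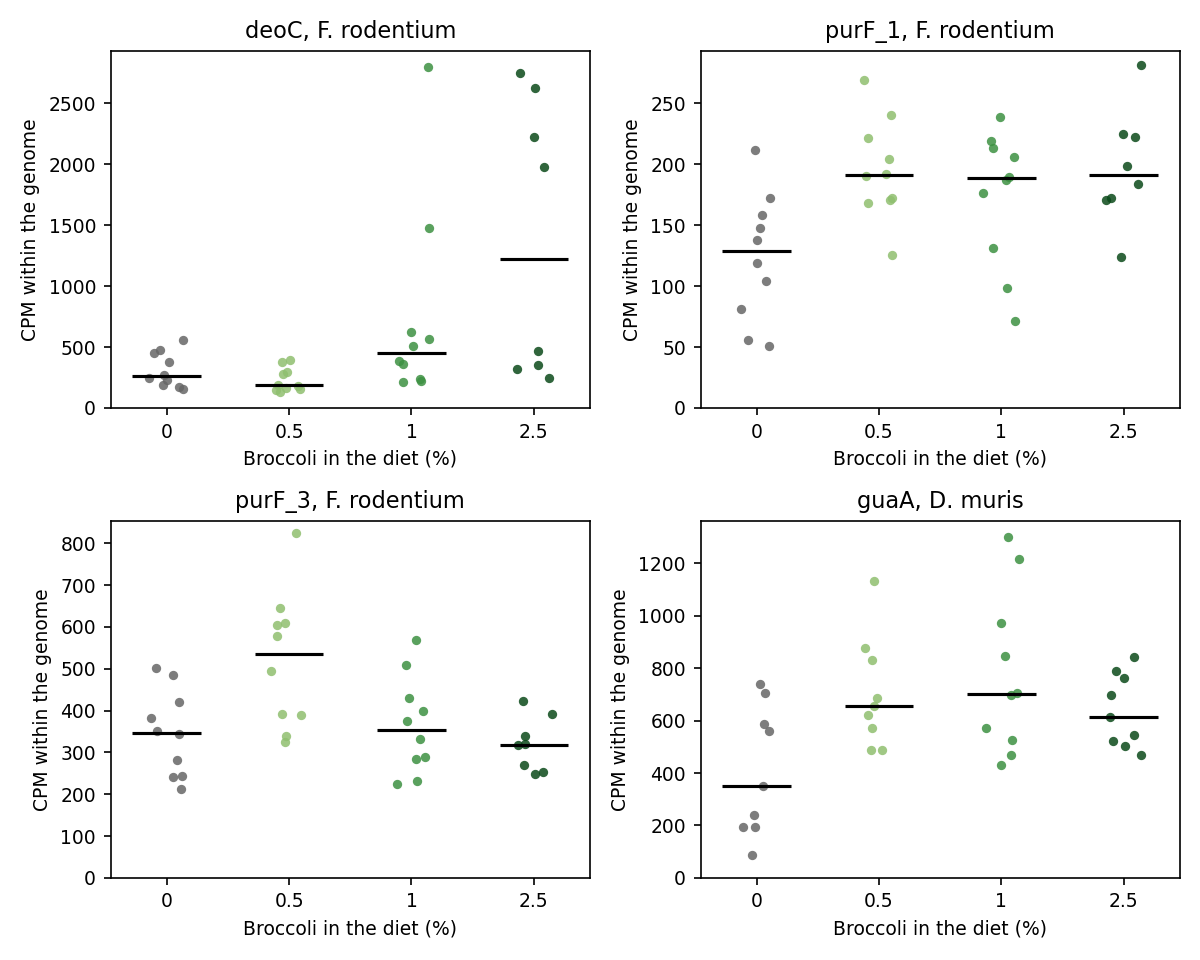
CPM within the genome (y axis) of the 4 nucleotide genes called in F. rodentium or D. muris, by broccoli in the diet (x axis), 1 point per library and a bar at the median. F. rodentium deoC splits at 2.5% into 4 libraries between 1979 and 2747 CPM and 4 between 245 and 468, and in each panel the diets overlap.

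The F. rodentium deoC gene encodes deoxyribose-phosphate aldolase. At 0% its lowest, median and highest libraries had 152, 260 and 557 CPM, and at 0.5% they had 134, 186 and 391. At 1% the values were 210, 447 and 2799 CPM. At 2.5% the 8 libraries had 245, 318, 350, 468, 1979, 2226, 2626 and 2747 CPM. Thus 4 of 8 libraries at 2.5% and 2 of 10 at 1% stood above every 0% library by more than 2-fold, the others lay within or near the 0% range, and 7 of 8 exceeded the 0% mean. The log2 fold change of deoC was -0.43 ± 0.41 (edgeR adjusted p = 0.61) at 0.5%, 1.11 ± 0.43 (adjusted p = 0.42) at 1% and 2.09 ± 0.45 (95% interval by SE 1.21 to 2.97, adjusted p = 0.00221) at 2.5%.

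The high deoC values fell in libraries with few F. rodentium counts. All 5 libraries with fewer than 50000 counts on the genome, 3 at 2.5% and 2 at 1%, had between 1479 and 2799 CPM of deoC. Only 1 of the other 33 libraries was as high, replicate 10 of the 2.5% diet with 104238 counts and 2626 CPM. The raw deoC counts per library had medians of 166 at 0%, 148 at 0.5%, 103 at 1% and 89 at 2.5%. Their ranges were 15 to 306 at 0% and 59 to 292 at 2.5%. These counts are not scaled to the F. rodentium total (median 511338 at 0% and 75069 at 2.5%), so they do not measure a change relative to the genome. With the log2 of the genome total as a covariate, the deoC change at 2.5% was 0.87 (edgeR adjusted p = 0.183) and the call was lost. In the libraries with at least 50000 counts alone (10 at 0%, 5 at 2.5%), deoC was at 1.32 (edgeR adjusted p = 0.0427). The diet and the F. rodentium total changed together, so their parts in the deoC values cannot be told apart.

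**Figure D3:**
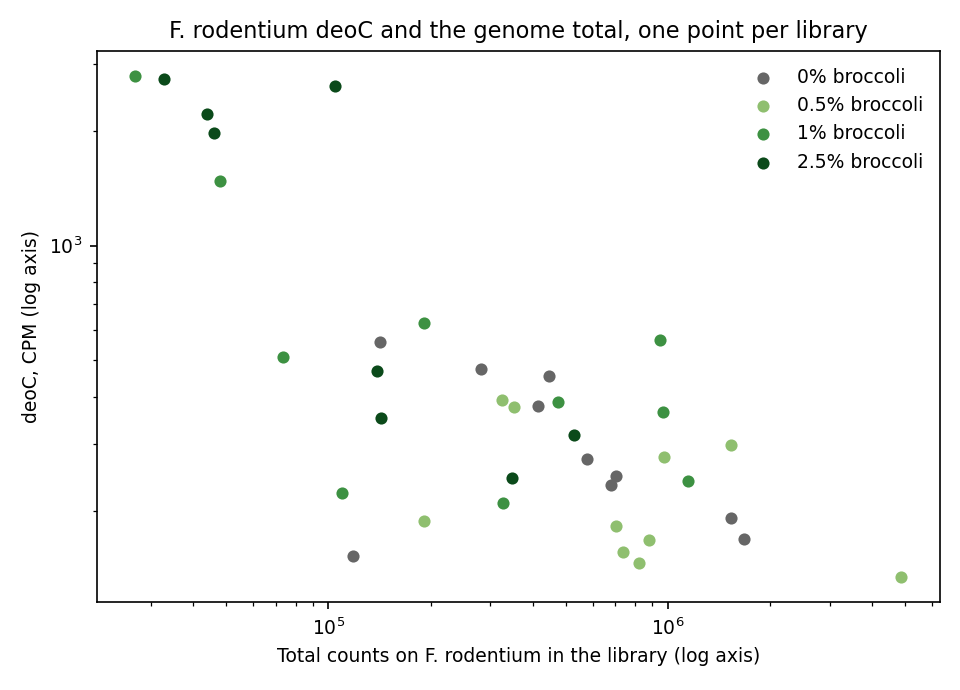
F. rodentium deoC in CPM (y axis, log) against the total counts on the F. rodentium genome (x axis, log), 1 point per library, coloured by diet. The 5 libraries under 50000 counts are all at 1479 CPM or more, and they come from the 1% and 2.5% diets.

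The other deoxynucleoside genes of F. rodentium did not pass the test. The phosphopentomutase gene deoB was at 0.89 ± 0.35 (edgeR adjusted p = 0.10, called without 0% replicate 4) at 0.5% and 0.69 ± 0.40 at 2.5%. The purine nucleoside phosphorylase gene deoD was at 1.10 ± 0.38 (edgeR adjusted p = 0.059) at 0.5% and 1.01 ± 0.44 (edgeR adjusted p = 0.135) at 2.5%, from a median of only 19.9 CPM at 0%, and exceeded the 0% mean in 10 of 10 and 5 of 8 libraries. At 0.5% deoD was called when any of 10 single libraries was left out (0% replicates 5 and 8, 1% replicates 1, 4, 5, 6, 7 and 8, and 2.5% replicates 1 and 10). A second aldolase gene, deoC2, was at -0.10 ± 0.32 at 2.5%, with medians of 166 CPM at 0% and 161 at 2.5%. Base salvage genes were near 0: upp (uracil phosphoribosyltransferase) at -0.24 ± 0.18, hpt (hypoxanthine phosphoribosyltransferase) at -0.03 ± 0.26 and apt (adenine phosphoribosyltransferase) at 0.12 ± 0.35 at 2.5%. The adenine deaminase gene ade had -0.53 ± 0.25 (edgeR adjusted p = 0.21) at 0.5% and -0.42 ± 0.28 (edgeR adjusted p = 0.36) at 2.5%, where 0 of 8 libraries exceeded the 0% mean. Adenylate kinase, adk, was at -0.23 ± 0.17 at 2.5%.

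As a share of the F. rodentium counts, salvage genes made up a median of 0.180% at 0%, 0.159% at 0.5%, 0.191% at 1% and 0.260% at 2.5%. Without deoC the medians were 0.146%, 0.138%, 0.155% and 0.151%, so the difference between 0% and 2.5% was mostly counts of deoC. Synthesis genes made up 0.938%, 1.15%, 0.979% and 1.14%. Other genes of nucleotide metabolism in F. rodentium formed a list of kinases, ribonucleotide reductases and transporters. Of 15 tested, edgeR called 0 at each dose, with 3, 1 and 3 at an unadjusted p under 0.05. Of all 1689 tested genes 358, 144 and 446 were at such a p. DESeq2 called 1, 0 and 3 of 16, where it called 237 of 1953, 22 of 1992 and 296 of 1953 genes in all.

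D. muris had 24 synthesis genes, 4 salvage genes, adk and purU. By edgeR 0 of 23 tested members were called at 0.5%, where 1.81% of its tested genes were called higher and 3.16% lower, and 0 at 2.5% (background 3.88% higher and 6.68% lower). At an unadjusted edgeR p under 0.05 there were 1 and 2, and 161 and 240 of all 1108 tested genes. DESeq2 called 0 and 0 of 30 members, and 65 of 1992 and 203 of 1899 genes in all. At 1% 1 of 23 was higher, guaA, where 2.53% of all tested genes were higher and 3.7% lower. At 2.5% 12 of 20 tested synthesis genes were positive (median 0.08). Of all 1108 tested genes 623 were positive, and their median was also 0.08.

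The D. muris gene guaA, whose product makes GMP from xanthosine monophosphate, had 86.3, 351 and 738 CPM in the lowest, median and highest 0% libraries. The corresponding values were 487, 654 and 1133 CPM at 0.5%, 431, 701 and 1302 CPM at 1%, and 470, 615 and 842 CPM at 2.5%. Every broccoli library lay above the 0% mean, 9 of 9, 10 of 10 and 9 of 9, although the groups overlapped. The log2 fold change of guaA was 0.75 ± 0.28 (edgeR adjusted p = 0.14) at 0.5%, 0.89 ± 0.27 (edgeR adjusted p = 0.0369) at 1% and 0.62 ± 0.28 (edgeR adjusted p = 0.16) at 2.5%. It rested on 89 counts in all at 0%, against 438 at 1%. The guaA call at 1% was lost without libraries 76 to 81 (0.86, edgeR adjusted p = 0.0809), with that covariate for the genome total (0.98, edgeR adjusted p = 0.0911), and without any of 9 single libraries (0% replicates 2, 3, 4, 6 and 7, and 1% replicates 1, 5, 7 and 10).

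The preceding step, guaB, was at 0.08 ± 0.20, 0.35 ± 0.20 and -0.21 ± 0.20 in D. muris at the 3 doses, with no call. Late pyrimidine genes had positive estimates without a call: pyrH (UMP kinase) was at 0.64, 0.90 and 0.70, and pyrG at 0.61, 0.57 and 0.67. The large carbamoyl phosphate synthase gene carB was at 0.42 ± 0.20 at 2.5% (edgeR adjusted p = 0.19), and purL was at -0.28 ± 0.16 (edgeR adjusted p = 0.33). D. muris deoC had medians of 432, 496, 499 and 495 CPM across the diets and a change of 0.06 ± 0.30 at 2.5%, and hpt was at -0.27 ± 0.49. The salvage genes apt (24 counts in all at 0%) and upp (2 counts) were too low to be tested. In the wider list of nucleotide genes, dut, whose product removes dUTP, rose at 2.5% (1.26 ± 0.41, edgeR adjusted p = 0.0392), 1 of 10 tested. The dut call was lost without libraries 76 to 81 (1.25, edgeR adjusted p = 0.0658), with the genome total in the fit (1.03, edgeR adjusted p = 0.60), and without any of 9 single libraries (0% replicates 1, 2, 7, 8 and 10, and 2.5% replicates 1, 3, 5 and 10).

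The D. muris and F. rodentium changes at 2.5% were compared within libraries over 228 gene symbols that both genomes carry once and that passed the minimum in both (limma on the difference of log2 CPM, 9 libraries at 0% and 8 at 2.5%). Of 17 shared members 0 were called, with a smallest limma adjusted p of 0.113, where 4.39% of all symbols were called. At an unadjusted limma p under 0.05 there were 4 members. The share of all symbols at such a p is not given here, so the 4 are not read as an excess. With a smaller prior count, with RLE factors or without libraries 76 to 81, limma also called 0 members. It then called 0.877%, 1.32% and 2.11% of all symbols. The deoC change in D. muris was lower than that in F. rodentium by 1.48 on the log2 scale (difference -1.48, 95% interval -2.56 to -0.39, limma adjusted p = 0.113). The difference was 0.50 for guaA (interval -0.22 to 1.22), -0.02 for guaB (-0.55 to 0.50), -0.78 for purL (-1.42 to -0.15) and 0.91 for pyrH (0.01 to 1.80).

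X. muris was the genome with the fewest members (14 synthesis genes, 3 salvage genes and purU). Of its 11 tested members edgeR called 0 at every dose, and 0 were at an unadjusted p under 0.05. Of all 670 tested genes 89, 122 and 158 were at such a p at 0.5, 1 and 2.5%. The background of adjusted calls was 0% in both directions at 0.5%, 5.37% higher and 1.19% lower at 1%, and 9.55% higher and 1.49% lower at 2.5%. DESeq2 called 0 at 0.5%, 1 at 1% and 1 at 2.5%, each time purL (phosphoribosylformylglycinamidine synthase), with 1.04 (DESeq2 adjusted p = 0.0287) and 1.11 (DESeq2 adjusted p = 0.00992). These were 1 of 13 and 1 of 15 members, where DESeq2 called 98 of 1028 and 240 of 1313 genes in all. At 0.5% DESeq2 called 17 of 980 genes. By edgeR purL was at 0.65 ± 0.39 and 0.51 ± 0.39, from a median of 473 CPM at 0% to 921 at 1% and 883 at 2.5%. The median over members was 0.07, -0.02 and 0.47 at the 3 doses and that over all tested genes 0.36, 0.46 and 0.51. With RLE factors in edgeR both were lower, at -0.27, -0.30 and 0.17 for the members and 0.00, 0.19 and 0.25 for all tested genes. The sign of the members' median at 0.5% thus depended on the scaling. At 1% that median was also at 0.03 without libraries 76 to 81 and at 0.36 without the count minimum. The calls over all tested genes moved with those factors from 36 higher and 8 lower to 22 and 10 at 1%, and from 64 and 10 to 32 and 13 at 2.5%. Of the salvage genes deoC, hpt and upp none could be tested: at 0% deoC had 8 counts, hpt 3 and upp 0, and at 2.5% they had 204, 52 and 31.

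In Acetatifactor, 4 of 9 tested members were higher at 0.5% (background 21.6% higher and 3.49% lower), 8 of 9 at 1% (49.5% and 18.2%) and 8 of 9 at 2.5% (54.5% and 22.5%). The members that could be tested were 5 purine synthesis genes, 3 pyrimidine synthesis genes and ade. Their median log2 fold change was 1.97, 2.41 and 2.88 at the 3 doses, and that of all 773 tested genes 0.95, 1.58 and 1.81. With RLE factors in edgeR the members' medians were 2.85, 3.72 and 4.93 and those of all tested genes 1.82, 3.00 and 3.84. With these factors 362 of 773 tested genes were higher and 8 lower at 0.5%, 479 and 8 at 1%, and 543 and 21 at 2.5%. The 39 members together had 220 counts in the 10 libraries at 0%, 1082 at 0.5%, 2730 at 1% and 8032 at 2.5%, and 14 of 39 had none at 0%.

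The largest estimates in Acetatifactor at 2.5% were those of carB_2, 1 of 2 copies of the carbamoyl phosphate synthase subunit, and purC, whose product joins aspartate to the growing purine ring. The carB_2 copy had 2 counts at 0% in all and 600 at 2.5%, a ratio of 48.7 (95% counting interval 13.4 to 403), and purC had 2 and 341, a ratio of 27.7 (7.60 to 229). Such intervals cover counting error only. By edgeR carB_2 was at 4.96 ± 0.89 (adjusted p = 2.05e-05) and above the 0% mean in 9 of 10 libraries, and purC at 4.38 ± 0.90, again in 9 of 10. Without replicate 8 of the 0% diet, which holds both purC counts, purC was at 6.98. No purC count at 0% was then left, so that value depends on the model's prior count. The other called members of Acetatifactor at 2.5% were ade (3.15 ± 0.83), carB_1 (2.91 ± 0.75), purF_2 (2.88 ± 0.81), purL (2.51 ± 0.77), guaB (2.19 ± 0.74) and purD (1.60 ± 0.71, edgeR adjusted p = 0.038). The purD call at 2.5% was lost without any of 22 of the 40 libraries (0% replicates 2, 4, 5, 6, 7, 9 and 10, 0.5% replicates 1, 7 and 10, 1% replicates 1, 3, 5, 6 and 7, and 2.5% replicates 1, 3, 4, 6, 7, 9 and 10). Without replicate 1 of the 0% diet ade was at 4.92 and guaB at 3.64. The pyrD_1 copy of the dihydroorotate dehydrogenase gene, at 0.75 ± 0.62 (edgeR adjusted p = 0.26), was the only tested member not called, and it was also the best counted at 0% (64 counts in 9 libraries).

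The adenine deaminase gene ade was the only salvage gene of Acetatifactor that could be tested, with 4 counts in 2 libraries at 0% and 284 in 9 libraries at 2.5%. Its CPM medians were 0 at 0%, 18.8 at 0.5%, 80.7 at 1% and 188 at 2.5%, and the ranges overlapped at each dose. The untested salvage genes had apt at 0 and 76 counts, hpt at 0 and 76, upp at 3 and 136 and deoC at 4 and 93 at 0% and 2.5%. With 0 counts at 0% and the floor set at 3 counts over the group, apt and hpt were at least 4.11-fold higher at 2.5% each, and guaA was at least 10.2-fold higher. Within the wider list 7 of 8 tested genes rose at 2.5%, where 54.5% of all tested genes were called higher, the cytidylate kinase gene cmk_1 (4.35 ± 0.87) and the phosphoribosyl pyrophosphate synthase gene prs_1 (3.40 ± 0.79) with the smallest p. Of the 8 calls at 2.5%, edgeR left only carB_2 when the genome total entered as a covariate, at 3.53 (adjusted p = 0.017), and 1 of the 8 genes of the wider list. With that covariate edgeR called 74 of all 773 tested genes higher and 52 lower.

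Of the 5 genomes, L.bacterium335 showed the widest contrast. At 0% its 37 members had 112 counts in the 10 libraries together, and 31 members had none. The counts present at 0% were pyrD_2 (60), guaA (37), deoD_2 (9), purR_2 (4), deoC (1) and deoD_1 (1). At 2.5% the members had 47897 counts and each of the 37 was detected. Of the 21 tested, 21 were higher at 0.5% (background 79.4% higher and 0.723% lower), 20 at 1% (78.4% and 1.52%) and 20 at 2.5% (77.8% and 15%). Most tested genes of this genome were thus called higher, and the count of members is read against that background. With RLE factors 1147 were higher and 33 lower at 2.5%, in place of 1077 and 208.

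For the 17 tested members with no count at 0%, only lower bounds on the change exist, with the floor at 3 counts over the group. Among synthesis genes at 2.5%, guaB was at least 166-fold, carB_2 at least 142-fold, pyrG at least 133-fold, purL at least 117-fold and purA (adenylosuccinate synthase) at least 75.2-fold higher. Among salvage genes, deoB was at least 186-fold and upp at least 39.7-fold higher. The aldolase gene deoC had 1 count at 0% and 7131 at 2.5%, a ratio of 801 (counting interval 144 to 31636), and deoD_1 had 1 and 766, a ratio of 86.0 (15.4 to 3402). With genes at 0 set to their bound, the median log2 change at 2.5% was 5.54 over the 21 members and 5.29 over all 1384 tested genes. At 0.5% the medians were 4.97 and 4.98.

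At 0% guaB had 0 CPM in every library. At 0.5% its lowest, median and highest libraries had 0, 425 and 833 CPM, at 1% 0, 517 and 660, and at 2.5% 0, 575 and 843. The salvage gene deoB had 65.7, 752 and 1066 CPM at 0.5%, 31.2, 464 and 978 at 1% and 0, 713 and 886 at 2.5%. The deoC gene had 165, 816 and 1223 CPM at 0.5%, 31.2, 247 and 1376 at 1% and 0, 1093 and 1607 at 2.5%. On each broccoli diet the median library of these 3 genes stood above every 0% library. At 2.5% replicate 9 stood apart with 14 member counts (guaA 8, pyrD_2 4, pyrE 2), and it was the library in which guaB, carB_2, deoB and deoC were at 0. Its L.bacterium335 total was also the lowest of that diet (101772 counts, diet median 525404). The same library fell below the 10000-count minimum in D. muris, F. rodentium and X. muris. Of the 21 tested members, 3 lay wholly above the 0% libraries at 0.5% (carB_2, deoB and deoC), 8 at 1% and 1 at 2.5% (pyrE). Of all tested genes of this genome 26.2%, 21.9% and 4.84% did so.

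**Figure D4:**
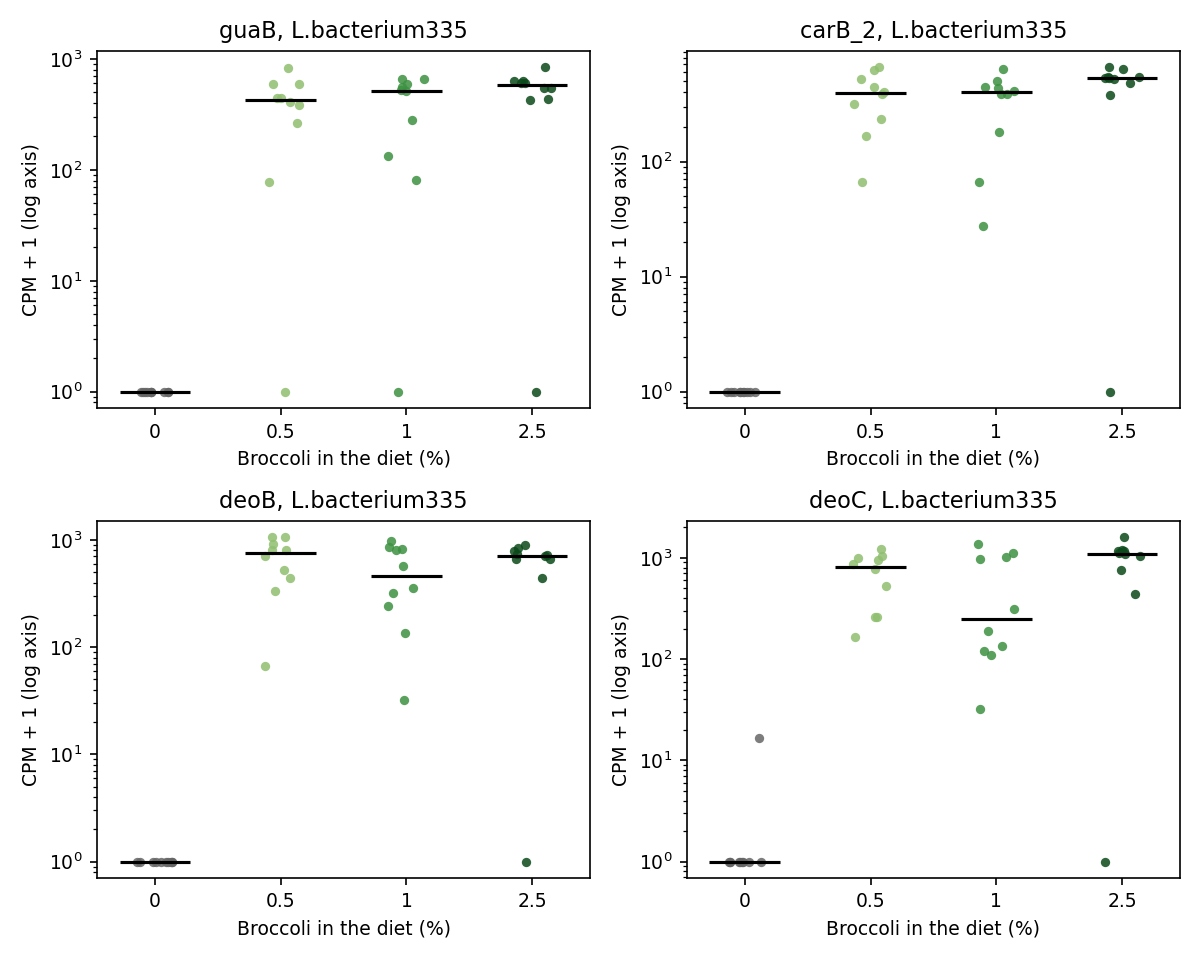
L.bacterium335 guaB, carB_2, deoB and deoC in CPM + 1 on a log axis (y), by broccoli in the diet (x), 1 point per library with a bar at the median. All 0% libraries are at 0 CPM except 1 for deoC at 15.5, and at 2.5% the single library at 0 in every panel is replicate 9.

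The exception among the tested members of L.bacterium335 was pyrD_2, a copy of the dihydroorotate dehydrogenase gene. It had 65.0 CPM in the median 0% library, and its highest 0% library had 290. Its medians were 119 CPM at 0.5%, 169 at 1% and 83.9 at 2.5%. The edgeR log2 fold change of pyrD_2 was 1.75 ± 0.70 (adjusted p = 0.0184) at 0.5%, 1.22 ± 0.69 (adjusted p = 0.10) at 1% and 0.28 ± 0.67 (adjusted p = 0.69) at 2.5%. Scaling moved its calls: with RLE factors pyrD_2 was at 1.11 (edgeR adjusted p = 0.12) at 0.5% and at 2.73 and called at 2.5%. The guaA gene, present at 37 counts in 7 libraries at 0%, had medians of 14.2, 66.8, 53.1 and 69.5 CPM across the diets but did not pass the count minimum. The deoD_2 copy, unlike deoD_1, had 9, 6, 10 and 5 counts at the 4 diets.

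Of the 2 regulators called purR, purR_1 had no count at 0% and 1015 at 2.5%, and purR_2 was at 4.73 ± 0.84. All 4 of the 0% counts of purR_2 lay in replicate 5, without which it was at 8.29. In the same way deoC moved from 9.12 to 11.06 without replicate 3 of the 0% diet, and deoD_1 from 5.87 to 7.82 without replicate 9. With its replicate left out each of these genes had no count at 0%. The larger values therefore depend on the model's prior count and do not measure the size of the change. All 12 tested genes of the wider list rose at each dose, where 79.4%, 78.4% and 77.8% of all tested genes were called higher, with the anaerobic ribonucleotide reductase gene nrdD_2 and the kinase gene cmk_2 having the smallest p at 2.5%.

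Salvage was set against synthesis within each library as salvage counts per 100 synthesis counts. Genes of different lengths enter these sums, so the ratio is read across diets within a genome and not between genomes. In F. rodentium the medians were 19.5, 13.2, 19.3 and 22.7 at 0, 0.5, 1 and 2.5%, and single libraries ranged from 9.44 to 57.8. In D. muris they were 5.66, 5.96, 6.48 and 7.01, with ranges of 3.47 to 12.2 at 0% and 5.13 to 8.01 at 2.5%. In X. muris they were 2.94, 1.63, 4.74 and 3.77. In these 3 genomes the ranges of all diets overlapped.

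In L.bacterium335 the median ratio was 0 at 0%, from a median of 7 synthesis counts per library, and 43.5, 28.7 and 51.1 on the broccoli diets. In Acetatifactor it was 0 at 0%, from a median of 17.5 synthesis counts, and then 12.6, 11 and 13.6. Pooled over the 0% libraries the ratios were 11.3 in L.bacterium335 and 9.14 in Acetatifactor, and the medians of 0 come from libraries with few counts. On the 0.5% and 1% diets the ratio of L.bacterium335 ranged from 3.36 to 82.9 in single libraries. No test was made of these ratios.

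**Figure D5:**
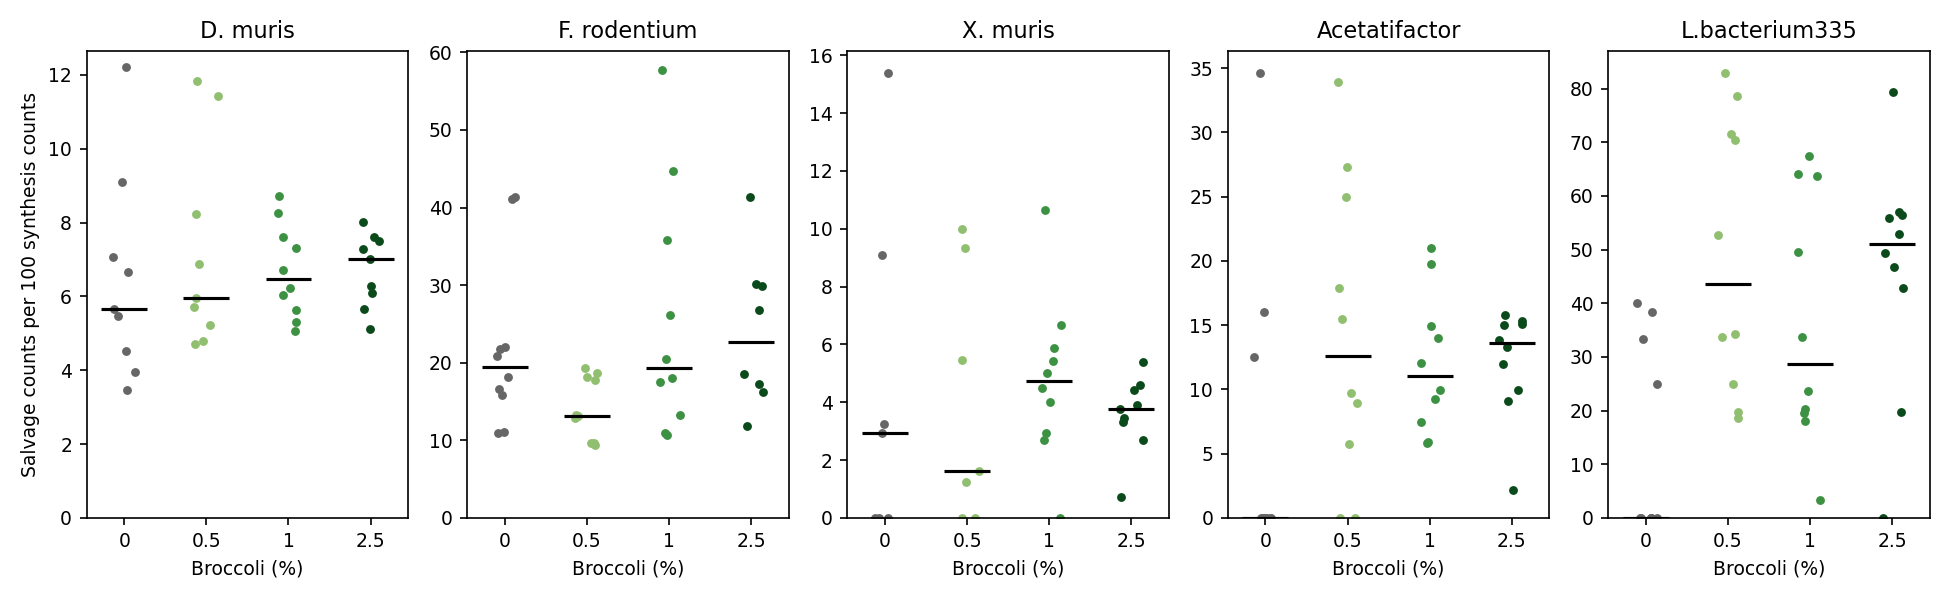
Salvage counts per 100 synthesis counts (y axis, its own scale in each panel) by broccoli in the diet (x axis), 1 point per library with a bar at the median, for each genome. The medians of D. muris lie between 5.66 and 7.01 at all diets, and in L.bacterium335 and Acetatifactor the 0% medians are 0, from few counts.

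The same gene could be read in several bacteria at 2.5%, each from its own fit. The guaB gene was at -0.21 ± 0.20 in D. muris, -0.13 ± 0.15 in F. rodentium and 0.03 ± 0.51 in X. muris, at 2.19 ± 0.74 in Acetatifactor and at least 166-fold higher in L.bacterium335. The purL gene was at -0.28 ± 0.16, 0.51 ± 0.22, 0.51 ± 0.39 and 2.51 ± 0.77 in the first 4 and at least 117-fold higher in the last. The deoC gene was at 0.06 ± 0.30 in D. muris and 2.09 ± 0.45 in F. rodentium, and rose from 1 to 7131 counts in L.bacterium335. The median log2 fold change of all tested genes was 0.08 in D. muris, 0.01 in F. rodentium, 0.51 in X. muris and 1.81 in Acetatifactor. In L.bacterium335 it was 5.29 with genes at 0 set to their bound. Each gene is read against the median of its own genome. These comparisons between bacteria use the same mice but separate normalizations, and only the pair of D. muris and F. rodentium was tested for a difference.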

How the data were processed

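The deposited tables hold raw counts per gene and library for single bacterial genomes, made by the authors from cecal RNA depleted of 5S, 16S and 23S ribosomal RNA (QIAseq FastSelect and KAPA RNA HyperPrep kits, per the labels' protocols). The aligner, the counter and the builds were not given in the sources used here. A further table, of Alistipes, was not used here. Diets were taken from the labels.

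Each of 5 genomes was fitted alone over all 4 diets in edgeR 4.0.16 (R 4.3.3): libraries with at least 10000 counts on the genome, filterByExpr, TMM scaling, quasi-likelihood tests against 0%, Benjamini-Hochberg adjustment over all tested genes, threshold 0.05. In X. muris 5 stable RNA features were removed first. D. muris and F. rodentium were compared with limma 3.58.1 (prior count 2). DESeq2 1.42.0, with size factors from positive counts, was an alternative. The scripts were tested on simulated data. Alternatives were RLE factors, no low-count filter, a minimum of 50000 counts, leaving out libraries, the genome total as a covariate, and other gene classes. Each library was left out in turn in every genome; for the 0.5% and 1% libraries, and for the 0.5% and 1% comparisons, this was added after the data had been seen.

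Members and lists were chosen with earlier results of these data known, and deoC2 was put with the salvage genes after the feature names had been read. Named genes are those called in a genome with at most 12 calls, in L.bacterium335 the 4 synthesis and 4 salvage genes with the highest mean CPM, and a set of common genes given in any genome (guaA, guaB, purF, purH, pyrG, pyrB, carB, adk, apt, upp, hpt, deoC, deoD and ade). Other members (such as purL, pyrH, deoB, deoC2, pyrD_2 and purR) were named after their values were seen. Precision is limited by the counts per genome. Intervals for ratios are 95% exact counting intervals, and the floor is 3 counts.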

Additional observations from a re-analysis of the deposited data

Results flagged for a closer look

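Dixon's test, at its 95% critical values, was applied to 12 members and to the salvage ratio of each genome, 68 groups of libraries in all, and marked 11 of them. The 12 members were picked after their values had been seen. Chance marks about 1 in 20 groups only where values are normally distributed, and many groups hold mostly zeros. A group with counts in only 1 library is always marked. In F. rodentium, deoC stood at 2799 CPM in replicate 5 at 1%, with the nearest library at 1479. In L.bacterium335, replicate 9 at 2.5% stood at 0 CPM for guaB (nearest 425.8), for carB_2 (nearest 378) and for deoB (nearest 439). This library had the lowest L.bacterium335 total of its diet, 101772 counts. Replicate 3 at 0% was the only one of its diet with deoC, at 15.5 CPM (1 count).

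In Acetatifactor, purC stood at 98.3 CPM (2 counts) in replicate 8 at 0%, where the nearest library was at 0. It stood at 302.1 CPM in replicate 8 at 0.5% (nearest 117). Replicate 1 at 0% stood apart for guaB at 582 CPM (nearest 197) and for ade at 116 CPM (nearest 42.8). The salvage counts per 100 synthesis counts of Acetatifactor were 34.6 in replicate 8 at 0% (nearest 16) and 2.13 in replicate 8 at 2.5% (nearest 9.09).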

How the results depend on the processing

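No called change of a member reversed under the alternatives run, and the cause of each change was not tested unless fewer genes or libraries entered. Without the low-count filter, calls in Acetatifactor at 0.5, 1 and 2.5% were 14, 26 and 30 of 38 members, purF_3 being lower at each dose. Of all 3895 genes 749, 1685 and 2231 were then higher. DESeq2 called 8 of 28, 21 of 33 and 25 of 33 members, and 610 of 2309, 1386 of 2838 and 1824 of 3064 genes in all. With the genome total as covariate 2, 3 and 1 of 9 were called, where 193, 274 and 126 of all 773 genes were. Without libraries 76 to 81, 1 of 8 was called at 0.5%, where 87 of 886 genes were. In L.bacterium335 34, 34 and 35 of 37 were called without the filter (deoD_2 lower at 2.5%), where 2374, 2770 and 3252 of 4240 genes were. DESeq2 called 33, 31 and 35 of 37, where it called 2034 of 3418, 2233 of 3418 and 2678 of 3664 genes. It gave 1 lower call among the members, deoD_2 at 2.5% (-3.87). In D. muris the call at 1% became 0 without libraries 76 to 81 and 0 with the covariate. In F. rodentium at 0.5% 4 of 33 were called with RLE factors (150 of 1689 genes in all) and 5 of 34 with the minimum of 50000 counts (210 of 1765). At that dose 0 of 33 were called without libraries 76 to 81 (40 of 1677) and 1 with the covariate (132 of 1689). At 2.5% 2 were called with RLE factors (156 of 1689) and 0 with the covariate (78 of 1689). In X. muris DESeq2 called 1 at 1% and 1 at 2.5%. Leaving out each library of all 4 diets in turn gave, at the 3 doses, 2 to 5, 7 to 8 and 7 to 8 calls in Acetatifactor, 0 to 0, 0 to 2 and 0 to 0 in D. muris, 0 to 5, 0 to 0 and 1 to 2 in F. rodentium, 20 to 21 each in L.bacterium335 and 0 to 0 each in X. muris. Acetatifactor carB_1 at 0.5% lost its call without any of 30 of the 40 libraries (all but 0% replicates 1, 3, 8 and 9, 0.5% replicates 3, 5, 6 and 9, 1% replicate 2 and 2.5% replicate 8). Calls at 0.5% fell to 2 without 0% replicates 2 or 4 or 0.5% replicate 8, purC being lost (1.93 without the last). Acetatifactor purD at 1% lost its call without 0% replicates 2, 4, 5, 6 or 7 or 1% replicates 3, 4 or 8. L.bacterium335 pyrD_2 at 0.5% lost its call without 0.5% replicates 2, 6 or 8, 1% replicates 3, 4, 5, 7 or 8, or any 2.5% replicate but 9. In F. rodentium at 0.5% no call was left without 0% replicates 6 or 7 or 0.5% replicates 2, 6 or 8, and 5 were made without 0% replicate 8. At 2.5% the second call came without 0% replicate 1, and in D. muris at 1% without 1% replicate 9. With adk as salvage and without pyrG and pyrH, the salvage ratio moved by more than 1 SD in D. muris at 1% (9.01) and 2.5% (9.24) and in F. rodentium at 0% (32.1) and 0.5% (21.7). The minimum of 50000 counts was not run in Acetatifactor, D. muris and X. muris, where no 0% library reached it. No paired analysis was possible because the labels give the diets no shared replicate numbers. Counts limit the tests in X. muris, and at 0% in Acetatifactor and L.bacterium335.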
